A study of Mus musculus with 3 samples.

Results

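The genes described here are 31 members of the cell division machinery, 22 that act in mitosis and 9 that act in DNA replication. They were taken by gene symbol from a table of 55450 genes, and each of the 31 symbols was found. Dividing cells copy their DNA in S phase and separate the copies in M phase. The replication members unwind DNA (Mcm2 to Mcm7, the subunits of the replicative helicase), clamp the polymerase to it (Pcna) and supply nucleotides (Rrm2, Tyms). The mitosis members drive entry into mitosis (Cdk1 with the cyclins Ccna2, Ccnb1 and Ccnb2, and Plk1), build and move the spindle (Tpx2, Kif11, Kif20a, Kif23, Nusap1, Hmmr), attach and check the chromosomes (Cenpa, Cenpe, Cenpf, Bub1, Bub1b, Aurkb, Birc5), end mitosis by protein destruction (Cdc20, Ube2c) or shape the chromosomes (Top2a, Mki67). In the testis spermatogonia divide by mitosis and spermatocytes copy their DNA once before meiosis, while Sertoli and Leydig cells of the adult are known to divide little.

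The study made single-cell libraries (10x 3' chemistry, which counts unique molecular identifiers, UMIs, near the end of each transcript) from mouse testis. All 3 groups carry an azoospermia model, which the treatment label gives as busulfan, a drug that kills dividing germ cells, and the group labels add PBS, wild-type mouse blood exosomes (EXO) or exosomes from mice with a gut microbiota imbalance (dEXO). Each group is 1 library, so no difference between groups could be tested, and group cannot be told apart from animal or preparation. Every interval below is an exact 95% interval that covers counting error only. The sources used here give no strain, age, dose or number of animals per library, and the extraction text in the labels speaks of aorta although the tissue label says testis.

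The libraries (in the order PBS, EXO and dEXO throughout) held 5514, 10228 and 9760 barcodes and 97253862, 91787154 and 96655663 UMIs, with medians of 7708, 3144.5 and 2852 UMIs per barcode. Each pair of libraries shared 19 barcodes. Filters on depth and mitochondrial share and the removal of called doublets kept 5267, 9860 and 9119 cells. The doublet caller marked only 4, 2 and 0 barcodes, so it did not work on these data, and doublets remained. Cells were put into 30 clusters with the members and further cell cycle genes, 138 in all, left out of the clustering. Clusters were named from marker genes as Leydig-like, stromal-like and so on (the ending is left off below), and clusters that carried markers of a second unrelated class stayed unnamed. Leydig cells numbered 1433, 1891 and 1842, stromal cells 2062, 4683 and 3197, T or NK cells 340, 535 and 435, Sertoli cells 80, 231 and 552 and spermatogonia 95, 215 and 404. PBS held 18 early and 32 late spermatocytes, fewer than the minimum of 50, so these stages are described in EXO and dEXO.

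Promoters of both kinds of member are printed here because the mitosis and the replication members parted in several results below, and they also carry different sequence words. RefSeq promoters (build GRCm38.p6, 250 bases before to 50 after the start) were matched for 26 of the 31 members, and Ccna2, Tpx2, Aurkb, Kif20a and Mcm4 were not matched. The words TTTGAA and TTTAAA of the cell cycle genes homology region (CHR), searched on both strands, were in 16 of 18 mitosis members and 3 of 8 replication members, against 27.6% of 32851 promoters. The E2F words TTTCCCGC and TTTGGCGC were in 0 of 18 mitosis members and 4 of 8 replication members (Mcm3, Mcm5, Mcm6 and Mcm7), against 1.56% of promoters. CCAAT was in 16 of 18 and 7 of 8, against 37.4%. Among genes of the same processes that are not members, CHR words were in 26 of 36 mitosis and 7 of 33 replication genes, and E2F words in 3 of 36 and 10 of 33. A match is a run of letters and not a shown binding site. The 150 bases from 120 before to 30 after the start are given 5′ to 3′ on the strand of the gene. Capitals mark CHR words in Plk1 (chr7:122159315-122159464, plus strand), Ccnb2 (chr9:70421525-70421674, minus strand) and Cdc20 (chr4:118437314-118437463, minus strand), and E2F words on either strand in Mcm3 (chr1:20820283-20820432, minus strand) and Mcm6 (chr1:128359676-128359825, minus strand).
Plk1: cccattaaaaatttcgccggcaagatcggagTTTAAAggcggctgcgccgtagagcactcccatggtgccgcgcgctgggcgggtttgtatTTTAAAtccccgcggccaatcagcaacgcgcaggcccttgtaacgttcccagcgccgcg
Ccnb2: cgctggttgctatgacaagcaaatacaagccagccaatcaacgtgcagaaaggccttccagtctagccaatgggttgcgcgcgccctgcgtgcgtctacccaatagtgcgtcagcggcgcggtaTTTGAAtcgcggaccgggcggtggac
Cdc20: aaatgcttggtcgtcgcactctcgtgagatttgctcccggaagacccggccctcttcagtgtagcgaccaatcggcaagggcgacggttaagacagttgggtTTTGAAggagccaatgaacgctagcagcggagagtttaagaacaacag
Mcm3: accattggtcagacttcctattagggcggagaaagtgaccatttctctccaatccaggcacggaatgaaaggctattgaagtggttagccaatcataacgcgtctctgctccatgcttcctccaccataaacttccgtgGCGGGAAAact
Mcm6: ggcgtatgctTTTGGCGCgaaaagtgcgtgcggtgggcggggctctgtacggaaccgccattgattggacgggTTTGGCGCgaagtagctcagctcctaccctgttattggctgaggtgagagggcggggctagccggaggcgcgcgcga

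Levels are given within a cell class in CPM, the share of a gene in all UMIs of that class on the usual CPM scale. Transcripts are not scaled by length, so each gene is compared with itself only. A gene is called higher or lower where the ratio of its CPM is at least 2 or at most 0.5 and both libraries together hold at least 20 of its UMIs.

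**Figure D1:**
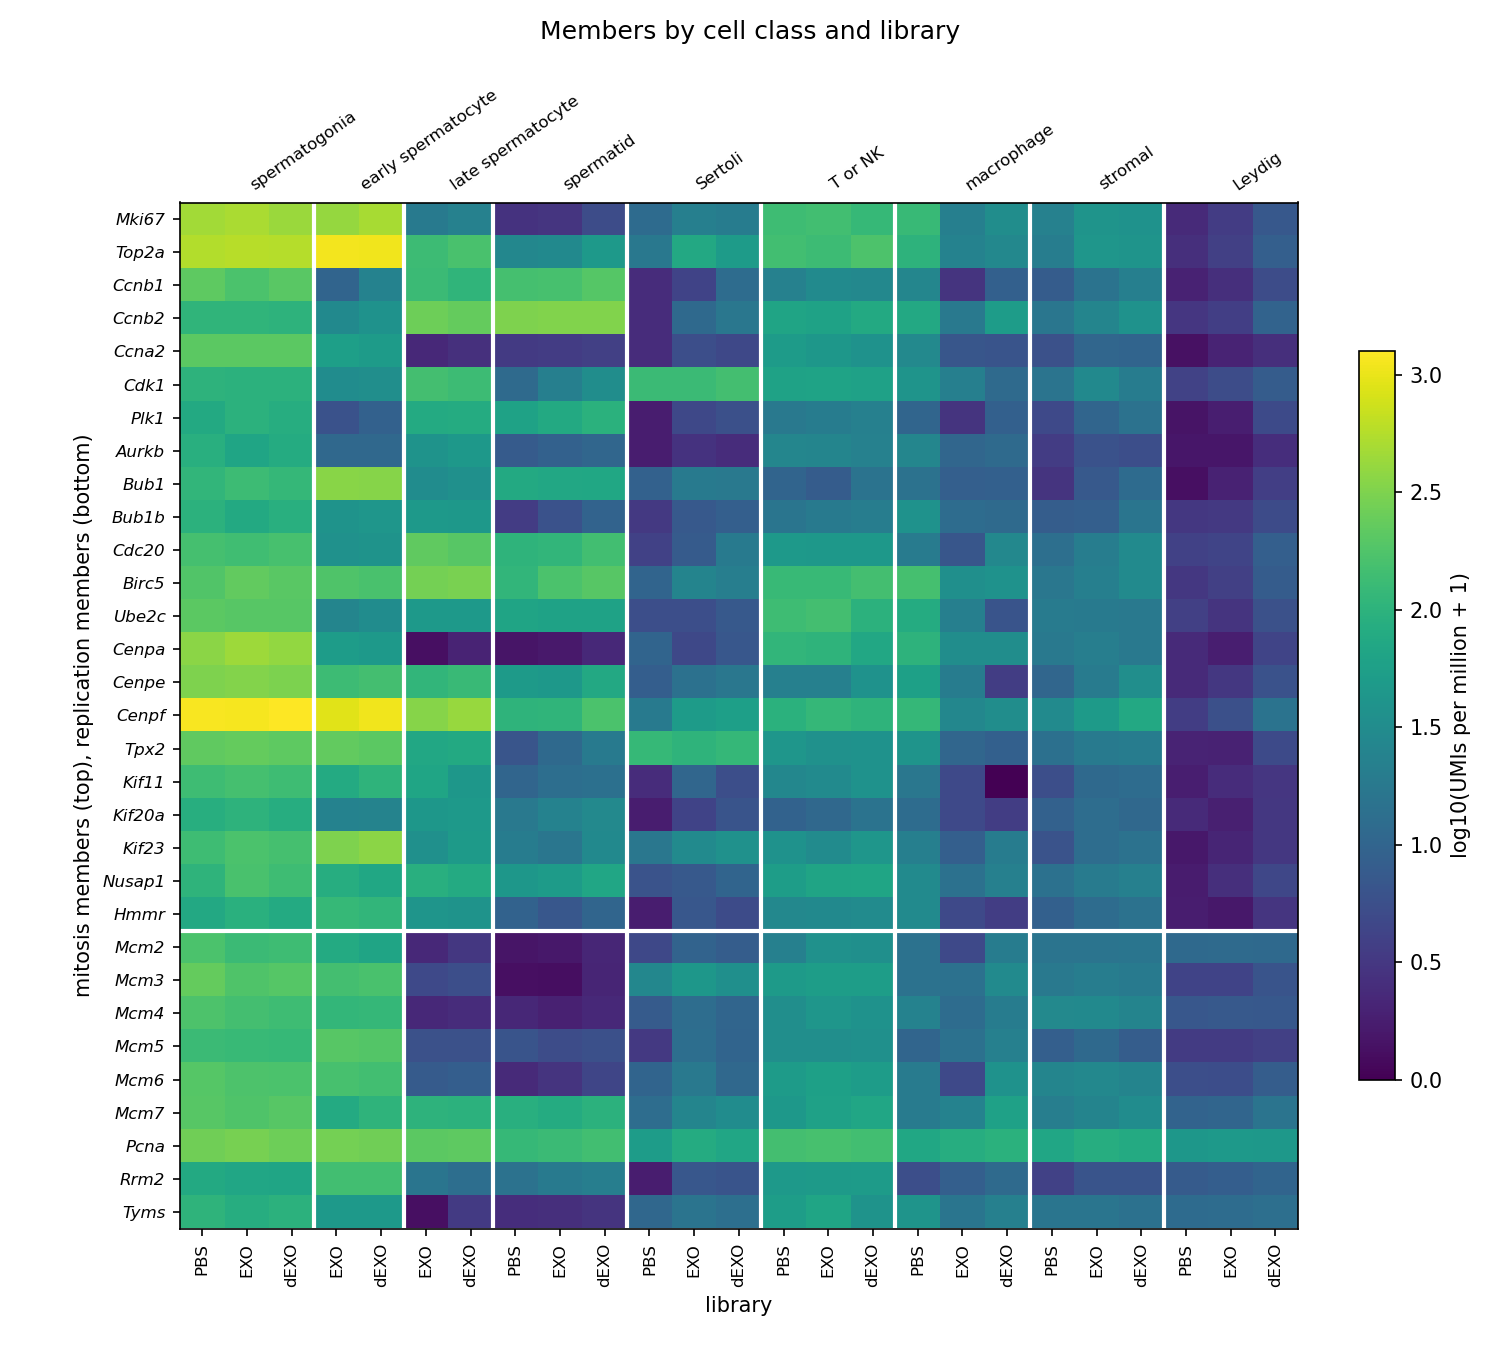
Level of the 31 members (rows) in each cell class and library (columns), coloured by log10(CPM + 1). Spermatogonia are high for most members in all 3 libraries, Leydig cells are low for the mitosis members, and Sertoli cells stand out for Cdk1 and Tpx2.

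Taken as a class, spermatogonia, the mitotic germ cells, held the members at high and similar levels in the 3 libraries. The mitosis members summed to 5167, 5426 and 5255 CPM and the replication members to 1522, 1369.7 and 1374 CPM. Mki67, the gene of the Ki-67 proliferation antigen, was at 472, 511 and 429 CPM. Top2a, which untangles chromosomes, was at 554, 591 and 565 CPM, and Cenpa, the centromeric histone, at 358, 442 and 398 CPM. Mcm3 was at 229, 176 and 189 CPM and Rrm2, a ribonucleotide reductase subunit, at 75.8, 68.2 and 65.7 CPM. No library was highest for all of these genes.

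None of the 31 members in spermatogonia was called higher or lower in EXO over PBS, in dEXO over PBS or in dEXO over EXO. The share of all genes called higher was 4.89%, 9.38% and 5.37% in these comparisons, and lower 1.91%, 0.92% and 1.3%. The log2 ratio of the summed mitosis members was 0.024 (-0.0047 to 0.053) in dEXO over PBS and -0.046 (-0.073 to -0.019) in dEXO over EXO. The summed replication members were at -0.15 (-0.21 to -0.09) in EXO over PBS and -0.15 (-0.20 to -0.093) in dEXO over PBS. These sums mix clusters in different proportions, and the cluster values are given below. The 2 comparisons with PBS share the PBS library.

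To separate dividing cells from cells with a few stray transcripts, each cell was thinned at random to 2000 UMIs, shallower cells were left out, and a cell with at least 3 of the 22 mitosis members was said to have the mitotic profile. Among spermatogonia it was found in 79 of 90 cells (87.8%, 79.2 to 93.7) in PBS, 140 of 164 cells (85.4%, 79.01 to 90.4) in EXO and 281 of 330 cells (85.2%, 80.8 to 88.8) in dEXO. The 3 intervals overlap. Without thinning the shares were 98.9%, 84.2% and 86.9%, and 5, 51 and 74 cells were too shallow to thin. At least 3 of the 9 replication members were found in 42.2%, 41.5% and 40.9% of the thinned cells.

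Spermatogonia clusters differed in which members were high. The members took no part in the clustering, but histone genes such as Hist1h1a and Hist1h2ap were not left out of it. The member levels are therefore not an independent check of these clusters. Cluster c101, led by Crabp1 and Uchl1, held 259 CPM of Ccnb1, the mitotic cyclin B1, and 308 of Mki67. Cluster c103, led by the histone genes Hist1h1a and Hist1h2ap, held 92.3 and 698 CPM of them. Top2a was at 378 CPM in c101 and 856 in c103, and Pcna at 244 and 367. Cluster c105, led by Usp26 and Tex11, had the highest Cenpa (591 CPM) and Ube2c (310.0 CPM) of the 4 spermatogonia clusters. The remaining cluster, c104, was shallow.

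Early spermatocytes held less of several cyclin and kinase genes than spermatogonia and more Bub1 and Rrm2. In EXO, 12 of 31 members were lower and 2 higher than in spermatogonia (15.7% and 11.5% of 11313 genes), and in dEXO 14 were lower and 3 higher (16.5% and 14% of 13585). Ccnb1 was at 8.85 against 164 CPM in EXO and 22.4 against 200.2 in dEXO. Plk1, a kinase of mitotic entry and cytokinesis, was at 5.06 against 98.01 and 8.15 against 85.1 CPM. Ccnb2, Ccna2, Cdk1, Aurkb, Cdc20, Ube2c, Cenpa, Cenpe and Kif20a were also lower in both libraries. Mcm7 was lower in EXO, and Bub1b, Mcm2 and Tyms were lower in dEXO.

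Bub1, a kinase gene of the spindle checkpoint, and Rrm2 were the members higher in early spermatocytes in both libraries, and Kif23, a kinesin of cytokinesis, was higher in dEXO. Bub1 was at 348 against 131 CPM in EXO and 343 against 115 in dEXO. Rrm2 was at 145 against 68.2 and 142 against 65.7 CPM. Top2a was at 1111 against 591 CPM in EXO, just under the 2-fold limit. Within the early spermatocytes, cluster c106, led by Zcwpw1 and Tex101, held 728 CPM of Bub1 and 1.35 of Plk1, and cluster c102, led by Hist1h2aa and Hist1h2ba with Stra8 among its leading genes, held 170.4 CPM of Rrm2 and 208 of Mcm5.

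Late spermatocytes held more of 6 members than early spermatocytes and less of most. Of 31 members, 6 were higher and 16 lower than in early spermatocytes in EXO (31.2% and 38.8% of 12017 genes), and 6 higher and 17 lower in dEXO (30.2% and 37.6% of 14845), so most genes differed between these stages and the share of members higher was below that of all genes. The 6 were Ccnb1, Ccnb2, Cdk1, Plk1, Aurkb and Cdc20 in both libraries. Ccnb2 was at 259.6 against 28.4 CPM in EXO and 233 against 36.7 in dEXO. Mki67 was at 17.2 against 403 and 22.1 against 487 CPM.

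The Mcm genes other than Mcm7 were at most 7.55 CPM in late spermatocytes of EXO and dEXO. Mcm7 was at 101 and 97.8 CPM, and Pcna at 210.3 and 214. The annotation places Cops6 and Ap4m1 over Mcm7 on the opposite strand, and no source used here gives the strand setting of the counting, so the Mcm7 value is uncertain.

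Spermatids, which do not divide, still held transcripts of M phase members. Ccnb2 was at 312, 323 and 328 CPM, Ccnb1 at 152, 156 and 193 and Cdc20, an activator of the anaphase-promoting complex, at 102, 109.8 and 142. From late spermatocytes to spermatids 2 of 28 members were higher and 12 lower in EXO (27.4% and 35.2% of genes), and 1 of 31 higher and 11 lower in dEXO (26.3% and 33.8%). Bub1 was the one higher in both, at 70.9 against 31.5 CPM in EXO and 69.1 against 34.5 in dEXO. In all 3 libraries Cenpa was at 0.511, 0.634 and 1.28 CPM and Ccna2 at 2.38, 2.54 and 2.85. The 3-member rule was met by 28.99%, 37.00% and 41.6% of spermatids, so the rule is not read as division in germ cells past the spermatogonia. In EXO over PBS none of 28 members was called (5.49% of genes higher, 2.53% lower), and in dEXO over EXO Mki67, Cenpa and Mcm3 were higher (3.62% higher, 1.01% lower). In dEXO over PBS 8 of 31 members were higher (12% of genes) and 0 lower (2.96%). Those 8 were Mki67, Cdk1, Bub1b, Cenpa, Tpx2, Mcm2, Mcm3 and Mcm6, of which Cdk1 was at 10.9, 20.6 and 31.7 CPM and the other 7 at no more than 17.7 CPM in dEXO. All 31 members reached the minimum on their dEXO UMIs alone and 22 on their PBS UMIs alone. A member that passed mostly through dEXO could hardly be called lower, so the counts over PBS are a description only.

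**Figure D2:**
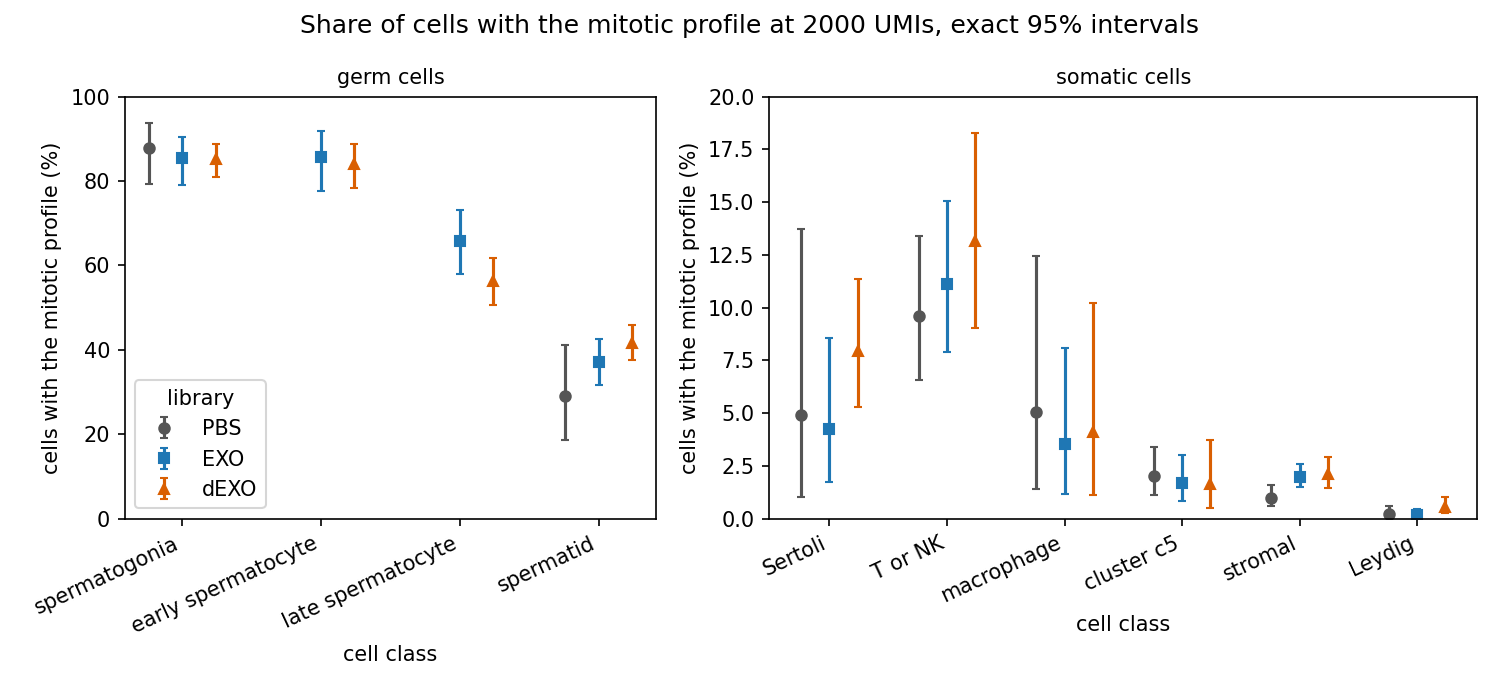
Share of cells with the mitotic profile (at least 3 of 22 mitosis members at 2000 UMIs per cell, in percent) by class and library with exact 95% intervals, germ cells at left and somatic cells at right on a smaller scale. Spermatogonia lie between 85.2% and 87.8%, T or NK cells between 9.58% and 13.2%, and Leydig cells at or below 0.559%. The unnamed cluster c21, which carries Leydig and stromal markers and holds almost only cells with the profile, is not shown and is not in the Leydig values.

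In the named somatic classes together the mitotic profile was found in 57 of 3609 cells (1.58%, 1.198 to 2.04) in PBS, 107 of 5338 cells (2.005%, 1.65 to 2.42) in EXO and 106 of 4039 cells (2.62%, 2.15 to 3.17) in dEXO. Sertoli cells were 61, 165 and 340 of these cells and 3, 7 and 27 of those with the profile. The shares therefore mix classes in different proportions. The order of the libraries also depended on the rule. With at least 5 members the shares were 1.25%, 1.37% and 1.06%, and with at least 10 they were 0.665%, 0.806% and 0.594%, so dEXO was highest under the 3-member rule and lowest under the stricter ones. Cells with exactly 2 members numbered 31, 111 and 195 and cells with exactly 3 numbered 8, 24 and 49. Without thinning the shares were 3.66%, 3.55% and 9.18%. The unnamed clusters, which held 18.0%, 10.6% and 7.58% of the cells kept, are not in any of these shares.

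T or NK cells had the profile in 30 of 313 cells (9.58%, 6.56 to 13.4) in PBS, 36 of 324 cells (11.1%, 7.904 to 15.05) in EXO and 30 of 228 cells (13.2%, 9.06 to 18.2) in dEXO, and the intervals overlap. Without thinning the shares were 10.3%, 9.72% and 11.5%. The mitosis members summed to 1261, 1293 and 1288 CPM, a log2 ratio of 0.036 (-0.052 to 0.12) in EXO over PBS and 0.031 (-0.067 to 0.13) in dEXO over PBS. Mki67 was at 135, 143 and 117 CPM, Ube2c, an enzyme of mitotic exit, at 135, 148 and 97.98 and Pcna at 147, 158 and 143. None of 31 members was called in EXO over PBS (5.64% of genes higher, 2.82% lower) or dEXO over PBS (11.6% and 2.41%), and Bub1 was higher in dEXO over EXO (8.94% of genes). Cells with the profile held 91.3%, 90.1% and 85.4% of the mitosis UMIs of the thinned cells. In cluster c9, led by Ccl5 and Ms4a4b, 89 of 730 cells deep enough to thin had the profile, and in c20, the other cluster of the class, 7 of 135.

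Stromal cells had the profile in 17 of 1692 cells (1.005%, 0.586 to 1.604) in PBS, 56 of 2822 cells (1.98%, 1.502 to 2.57) in EXO and 33 of 1571 cells (2.101%, 1.45 to 2.94) in dEXO, and in 1.55%, 2.22% and 3.19% without thinning. Cells with at least 10 members numbered 12, 28 and 12, cells with exactly 2 numbered 12, 57 and 93 and cells with exactly 3 numbered 1, 11 and 14. Of the 106 stromal cells with the profile, 67 were in cluster c2, led by Ccn2 and Cyp26b1. Within c2 the share was 2.71% (1.36 to 4.796), 3.89% (2.83 to 5.21) and 5.603% (3.02 to 9.39). Cluster c6, also with Ccn2 and Cyp26b1 among its leading genes, had the profile in 1 of 15, 3 of 63 and 6 of 381 cells. Its shares were 6.67% (0.169 to 31.9), 4.76% (0.993 to 13.3) and 1.57% (0.58 to 3.4), the opposite order. Cluster c2 made up 20.8, 31.3 and 8.85% of the stromal cells, and the cluster with most of the class was c3 in PBS (34.5%), c2 in EXO and c6 in dEXO (35.3%).

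Leydig cells had the profile in 3 of 1425 cells (0.211%, 0.0434 to 0.614) in PBS, 3 of 1853 cells (0.162%, 0.0334 to 0.472) in EXO and 10 of 1789 cells (0.559%, 0.268 to 1.03) in dEXO. Without thinning the shares were 3.21%, 2.697% and 10.7%, at median depths of 34128, 18593 and 14464 UMIs in the thinned cells before thinning. Cells with exactly 2 members numbered 2, 12 and 30 and cells with exactly 3 numbered 0, 0 and 4. The unnamed cluster c21, which carries Leydig and stromal markers, held 18, 33 and 20 cells with the profile that are not counted here.

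Macrophages had the profile in 4 of 79 cells (5.06%, 1.397 to 12.5) in PBS, 5 of 141 cells (3.55%, 1.16 to 8.08) in EXO and 4 of 97 cells (4.12%, 1.13 to 10.2) in dEXO. Their mitosis members summed to 1139, 299.6 and 362 CPM, and in PBS the 4 cells with the profile held 89.6% of the mitosis UMIs of cells deep enough to thin. Mki67 was at 121, 20.9 and 32.2 CPM and Top2a at 100.5, 22.8 and 26.8. Of 15 members with enough UMIs, 9 reached the minimum on their PBS UMIs alone and 1 on their EXO UMIs alone, so a member that passed mostly through PBS could hardly be called other than lower, and the counts are given as a description only. Of the 15, 12 were lower and 0 higher in EXO over PBS (4.54% and 6.04% of genes), and of 16, 10 were lower and 2 higher in dEXO over PBS (4.57% and 9.95%). Of 8 members with enough UMIs in dEXO over EXO, Ccnb2 and Mcm7 were higher and 0 lower (8.12% and 2.8%). Peritubular myoid cells had the profile in 0 of 39 cells in PBS, which allows a share of up to 7.69% by the limit of 3 counts (exact upper bound 9.03%), in 0 of 33 in EXO, which allows up to 9.09% (exact upper bound 10.6%), and in 2 of 14 in dEXO. PBS and dEXO held under 50 of these cells.

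The unnamed cluster c21, with Leydig and stromal markers, held almost only cells with the mitotic profile. It was led by Hist1h1b, Mxd3, Hist1h2ae and Pclaf, and 18 of 20, 33 of 33 and 20 of 21 cells had the profile. Top2a was at 1291, 1165 and 930.0 CPM, Mki67 at 1016, 882 and 830.1 and Rrm2 at 439.7, 451 and 462. At least 3 of the 9 replication members were found in 65%, 54.5% and 61.9% of its thinned cells. Cluster c5, also unnamed and with markers of the same 2 classes, had the profile in 2.03%, 1.69% and 1.62% of cells. Cells of c21 and c5 are in neither the Leydig nor the stromal values.

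The mitosis members are high in cells with the profile by the rule that chose these cells, so genes that the rule did not use are given. In stromal cells with the profile 44 of 45 other mitosis genes were higher than in stromal cells without it (9.25% of genes), in T or NK cells 42 of 43 (8.61%) and in Leydig cells 43 of 45 (14.3%). Prc1, which bundles the central spindle, was at 753 against 5.09 CPM in stromal cells. Of other replication genes, 31 of 43, 38 of 42 and 40 of 44 were higher. Tk1, a thymidine kinase, was at 98.6 against 2.65 CPM in stromal and 154 against 6.05 in T or NK cells.

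The replication members differed among the somatic cells with the profile. In T or NK cells 9 of 9 were higher than in the other cells of the class (8.61% of genes, median log2 ratio 1.55). In Leydig cells 9 of 9 were higher (14.3%, 3.24) and in stromal cells 5 of 9 (9.25%, 1.23). In Sertoli cells 8 of 9 were higher (11.7%, 1.92) and in cluster c5 9 of 9 (11.1%, 1.88). Rrm2 was at 49.3 CPM in stromal, 237 in T or NK, 174 in Leydig and 455 in c21 cells with the profile. Pcna was at 148, 330.0, 176 and 551 CPM, and Tyms, the thymidylate synthase, at 100.2, 199, 139.7 and 357. In the 37 Sertoli cells with the profile Rrm2 was at 22.1, Pcna at 153 and Tyms at 22.1 CPM, in the 30 of c5 at 128, 129.6 and 151, and in the 13 macrophages at 74.5, 174 and 124. Cluster c21 was highest of the 7 for all 3 genes, and Sertoli cells were lowest for Rrm2 and Tyms. The stromal, T or NK, Leydig and c21 cells number 106, 96, 16 and 71, and the libraries are pooled.

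Class markers and doublet scores stand beside these values. Leydig markers summed to 41045 CPM in Leydig cells with the profile and 50519 in those without, and their stromal markers to 1160.4 and 464. Stromal markers summed to 11160.5 and 18638 CPM in stromal cells, and their Leydig markers to 2465 and 1176. In T or NK cells with the profile, stromal markers summed to 1174 CPM against 377 without it and Leydig markers to 1709 against 1008. Their Sertoli markers were at 68.4 against 83 CPM. The median doublet score was 0.0905 against 0.0443 in Leydig and 0.0612 against 0.0403 in stromal cells. It was 0.0489 against 0.0091 in T or NK cells, 0.110 against 0.041 in Sertoli cells and 0.0431 against 0.0153 in macrophages. The part of doublets in the profile was not tested.

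Summed over all cells of a class, the mitosis members were at higher levels in Leydig and stromal cells of the exosome libraries, and the replication members differed less. Of the mitosis UMIs in cells deep enough to thin, the 3, 3 and 10 Leydig cells with the profile held 41.75%, 15.5% and 27.6%. The 17, 56 and 33 stromal cells with it held 80%, 77.3% and 62.8%, so the sums rest in part on few cells. In Leydig cells the mitosis members summed to 31.7, 41.8 and 106 CPM, a log2 ratio of 0.40 (0.30 to 0.50) in EXO over PBS and 1.74 (1.65 to 1.83) in dEXO over PBS. The replication members summed to 96.7, 101 and 112 CPM, log2 ratios of 0.067 (0.0048 to 0.13) and 0.21 (0.15 to 0.28). In stromal cells the mitosis members summed to 254, 415 and 494 CPM, log2 ratios of 0.70 (0.64 to 0.77) and 0.96 (0.88 to 1.03), and the replication members to 198, 229 and 216 CPM. Different clusters made up the Leydig class: c0 held 85.3% of it in PBS and 64.2% in EXO, and c1 held 89.96% in dEXO. Within c0 the mitosis members summed to 32.3, 39.6 and 58.5 CPM, and within c1 to 26.6, 50.5 and 109, so the same order was found in each. Of the 6 stromal clusters, c2, c4, c7 and c10 had the order PBS, EXO, dEXO from lowest to highest, and c3 and c6 did not. Cluster c3 held 110.0, 88.4 and 247 CPM and c6 held 403, 437 and 388. Cluster c6 made up 4.75, 9.05 and 35.3% of the stromal cells, so the stromal sums also mix clusters in different proportions. At a clustering resolution of 2 the Leydig ratio in EXO over PBS was -0.023 and changed sign. The stromal ratio in dEXO over PBS was 2.35 when the cell cycle genes entered the clustering and 0.69 when scaled by the median gene.

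**Figure D3:**
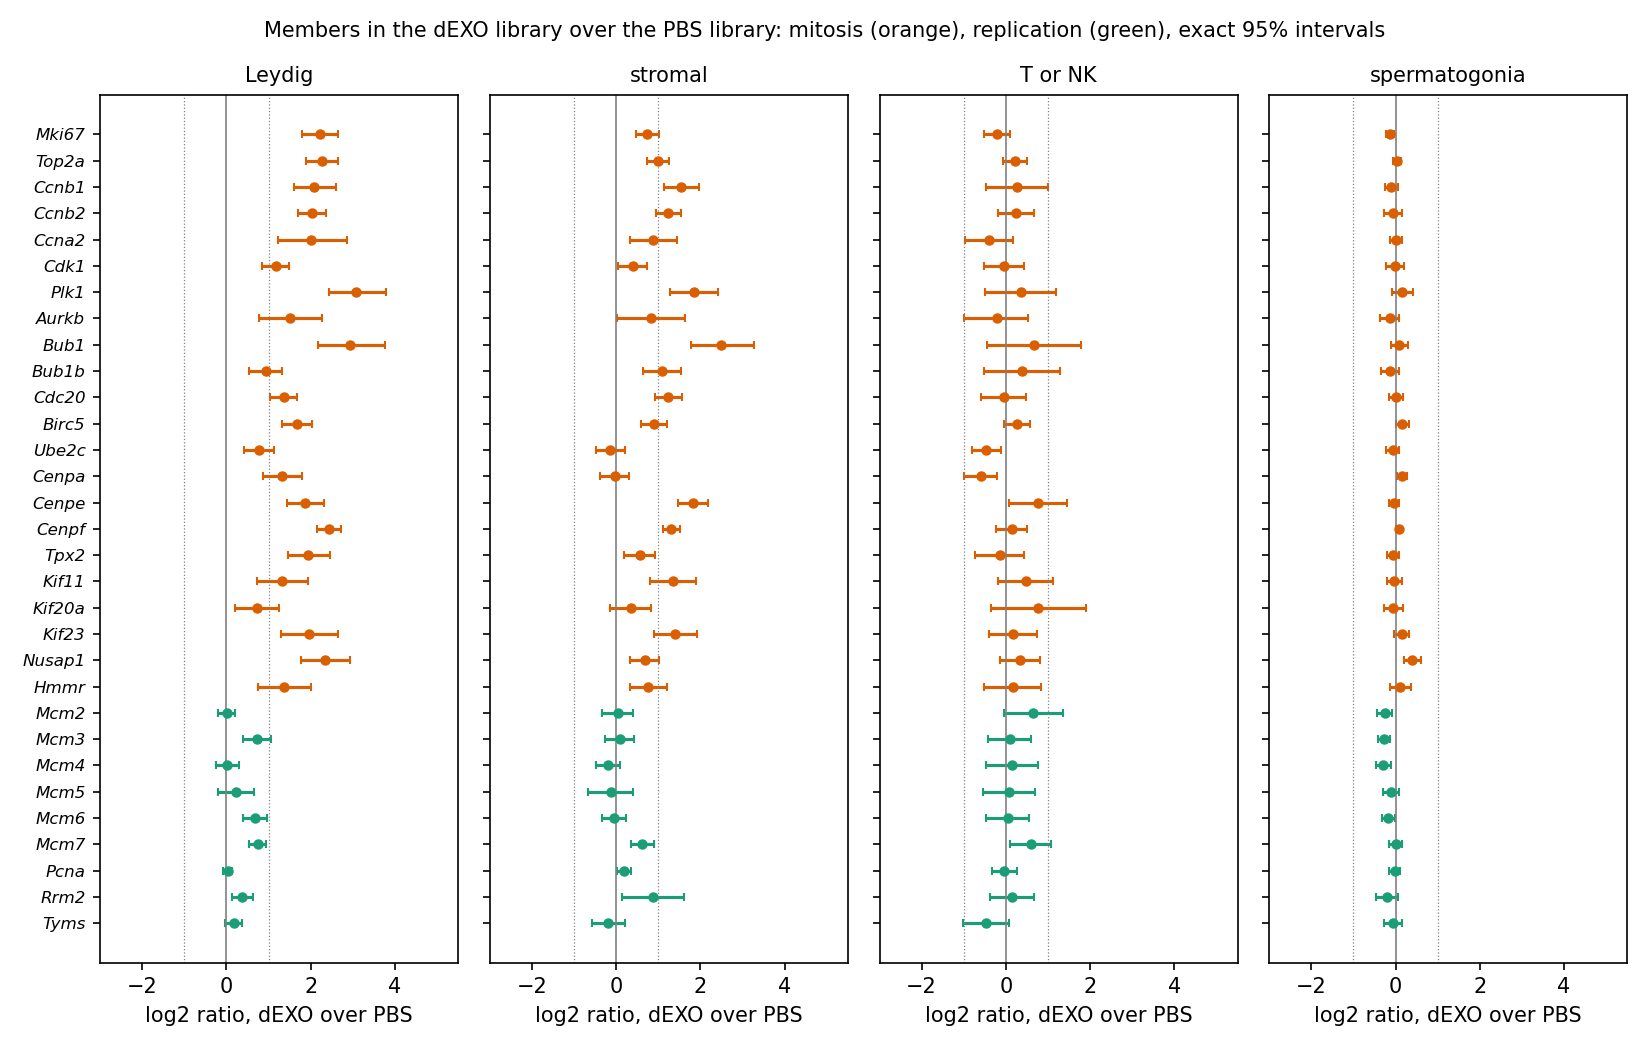
Log2 ratio of each of the 31 members in dEXO over PBS (one point per member with its exact 95% interval, mitosis members orange and replication members green, dotted lines at a 2-fold difference) in Leydig, stromal, T or NK cells and spermatogonia. In Leydig cells 19 mitosis members lie beyond the upper line, in stromal cells 10, and in T or NK cells and spermatogonia none.

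All 31 members held enough UMIs in each Leydig and stromal comparison. In Leydig cells 3 were higher in EXO over PBS (Ccna2, Bub1 and Nusap1), a share near the 9.74% of all genes. In dEXO over PBS 19 were higher (15.6% of genes) and in dEXO over EXO 18 (10.1%). All of the called members were mitosis members, and 0 were lower (2.22%, 2.48% and 1.29% of genes). In dEXO over PBS the mitosis members not called were Bub1b, Ube2c and Kif20a. The median log2 ratio in dEXO over PBS was 1.91 over the mitosis members, 0.23 over the replication members and 0.14 over all genes tested. Plk1 was at 0.474, 0.8195 and 4.02 CPM, Cenpf, a kinetochore gene, at 2.65, 4.63 and 14.2 and Ccnb2 at 2.13, 2.77 and 8.701. Ccnb2 was at 312, 323 and 328 CPM in spermatids. Pcna was level, at 43.3, 45.6 and 44.2 CPM.

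In stromal cells 7 members were higher in EXO over PBS (Top2a, Ccnb1, Ccna2, Plk1, Bub1, Kif11 and Kif23; 13.6% of genes), 10 in dEXO over PBS (17.6%) and 0 in dEXO over EXO (9.5%). None was lower (0.569%, 0.789% and 0.944% of genes). The 10 were Ccnb1, Ccnb2, Plk1, Bub1, Bub1b, Cdc20, Cenpe, Cenpf, Kif11 and Kif23. Plk1 was at 3.82, 9.25 and 13.6 CPM, Cenpf at 29.7, 47.9 and 73.5 and Bub1 at 1.96, 6.28 and 11.02. Cenpa was at 17.1, 20.2 and 16.7 CPM and Ube2c at 18.5, 18.2 and 16.8, nearly level in the 3 libraries. The median log2 ratio in dEXO over PBS was 0.94 over the mitosis members and 0.27 over all genes tested.

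Further genes of both processes, from lists of 45 mitosis and 44 replication genes, were counted in the same way. In Leydig cells 28 of 43 other mitosis genes and 11 of 44 other replication genes were higher in dEXO over PBS (15.6% of all genes), and in stromal cells 23 of 45 and 9 of 42 (17.6%), with 0 lower in either class. In EXO over PBS the numbers were 6 of 43 and 4 of 44 in Leydig cells (9.74%) and 14 of 45 and 5 of 44 in stromal cells (13.6%). The share of other replication genes was near that of all genes in stromal cells in both comparisons and in Leydig cells in EXO over PBS. Knl1, a kinetochore scaffold, was at 2.900 against 0.257 CPM in Leydig cells, a log2 ratio of 3.50 (2.64 to 4.47). Cdkn3, a phosphatase that acts on cyclin-dependent kinases, was at 63.2 against 12.6 CPM in stromal cells, 2.32 (2.04 to 2.62). In spermatogonia 0 of 45 other mitosis and 0 of 44 other replication genes were higher in dEXO over PBS and 0 lower, and Cdt1, which loads the helicase at origins, was at 66.04 against 92.3 CPM.

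These differences were also present in cells without the mitotic profile, together with germ cell transcripts that somatic cells should lack. In Leydig cells without the profile the mitosis members summed to 18.5, 35.2 and 76.9 CPM and 19 germ cell genes (protamines, transition proteins and other genes of spermatocytes and spermatids) to 92.2, 220.3 and 547 CPM. In stromal cells without it (here, as in all classes, cells of at least 2000 UMIs) the mitosis members summed to 53.7, 105 and 207 CPM and the germ cell genes to 324, 794 and 1817 CPM. T or NK cells without it held 137, 189.5 and 305 CPM of mitosis members, with germ cell genes at 466, 867 and 2313 CPM. Macrophages without it held 132, 149 and 243 CPM, with germ cell genes at 503, 1010.2 and 2007 CPM. Both sums were lowest in PBS and highest in dEXO in each of these 4 classes. Sertoli cells without the profile had the same order, with mitosis members at 289, 374 and 454 CPM and germ cell genes at 332, 673 and 1426. Per 100 germ gene UMIs there were 20.05, 15.98 and 14.1 mitosis member UMIs in Leydig, 16.6, 13.2 and 11.4 in stromal, 29.5, 21.8 and 13.2 in T or NK cells and 26.2, 14.7 and 12.1 in macrophages. All germ cells together held 13.5, 9.81 and 11.4, below these somatic values in PBS and EXO and close to the stromal value in dEXO. The ratio differed widely between germ stages, from 4.41, 4.96 and 6.17 in spermatids and 10.6 and 12.2 in late spermatocytes of EXO and dEXO to 164 and 149 in their early spermatocytes and 1027, 602 and 472 in spermatogonia. The part of free germ cell RNA in the differences between libraries was not tested.

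**Figure D4:**
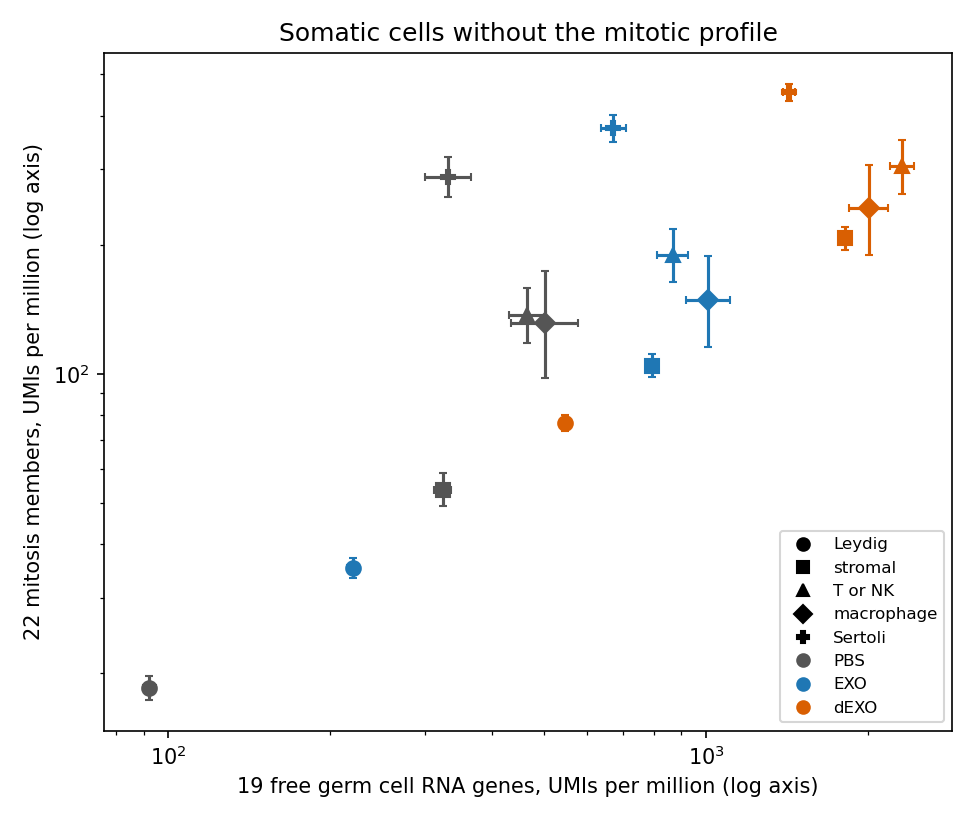
Summed level of the 22 mitosis members against that of 19 germ cell genes (both in CPM on log axes) in somatic cells without the mitotic profile, one point per class (shape) and library (colour) with exact 95% intervals. In Leydig, stromal, T or NK and Sertoli cells and macrophages both sums are lowest in PBS and highest in dEXO. Sertoli cells lie above the other classes in the mitosis members.

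Called members in cells without the profile were 10 of 30 in Leydig cells in EXO over PBS (9.76% of genes higher), 20 of 31 in dEXO over PBS (15.4%) and 14 of 31 in dEXO over EXO (9.98%), all higher. The shares of genes lower were 2.29%, 2.49% and 1.24%. Called stromal members were 9 of 29 (11.3%), 17 of 29 (14.9%) and 11 of 31 (8.32%), all higher, with 0.606%, 0.832% and 1.14% of genes lower. In T or NK cells 4 of 15 members were higher in EXO over PBS (4.46% of genes), 3 of 14 in dEXO over PBS (9.39%) and 2 of 15 in dEXO over EXO (8.47%), and Tyms was lower in the last (3.16%, 4.32% and 2.94% of genes lower). The called members in Leydig and stromal cells are all mitosis members. In each comparison with PBS, 24 Leydig, 21 stromal and 10 T or NK members reached the minimum on their PBS UMIs alone. A member that passed mostly through an exosome library could hardly be called lower, so these counts are a description only. In stromal cells without the profile Ccnb2 was at 2.92, 8.89 and 21.6 CPM and Cenpf at 2.19, 11.4 and 24.98, and both were called in EXO and in dEXO over PBS. Their spermatid levels were 312, 323 and 328 CPM for Ccnb2 and 103, 105 and 164 for Cenpf. Cenpa was at 2.71, 4.44 and 2.54 CPM and was not called. Ccna2 was at 1.25, 1.59 and 4.02 CPM and was called in dEXO over PBS. Both genes were low in spermatids, and the part of spermatid RNA in any of these values was not tested. Mcm2 was at 14.6, 13.96 and 14.4 CPM in stromal and 10.3, 10.9 and 10.5 in Leydig cells.

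Sertoli cells, the somatic support cells of the tubule, held Cdk1 and Tpx2 far above the other somatic classes, while most mitosis members did not follow. In Sertoli cells without the profile Cdk1, the kinase of mitotic entry (chr10:69335146-69352938, minus strand), was at 123, 126 and 141 CPM, and Tpx2, a spindle assembly factor (chr2:152847964-152895321, plus strand), at 111, 95.6 and 115 CPM. Stromal cells without the profile held 7.503, 10.6 and 9.95 CPM of Cdk1 and 2.71, 2.75 and 7.197 of Tpx2. The cyclin partner Ccnb1 was at 0.834, 1.53 and 7.897 CPM in the same Sertoli cells and Ccna2 at 0.834, 1.53 and 2.71. In the stromal cells Ccnb1 was at 0.938, 3.702 and 10.6 CPM and Ccna2 at 1.25, 1.59 and 4.02. The Sertoli values of both genes in PBS and EXO rest on few UMIs, so the order of close values is not read. Kif23 was the one other mitosis member above the stromal level by over 2-fold in all 3 libraries, at 15.8, 20.4 and 30.6 CPM against 0.625, 2.33 and 6.56. The Sertoli level of Cdk1 was 16.3, 11.9 and 14.1 times the stromal level, and that of Tpx2 40.9, 34.8 and 15.9 times. Against Leydig, T or NK cells and macrophages both genes were also at least 8.86 times as high in each library.

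A Cdk1 UMI was found in 77.6%, 61.4% and 71.2% of these Sertoli cells (median depth 22308, 10868.5 and 12609 UMIs) and in 3.94%, 3.25% and 3.06% of the stromal cells (median depth 5350, 3061.5 and 2773.5 UMIs). The annotation places no other gene over Cdk1, and Mir5622 alone over Tpx2. The germ cell genes were at 332, 673 and 1426 CPM in these Sertoli cells, and their part in the Sertoli levels of Cdk1 and Tpx2 was not tested.

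**Figure D5:**
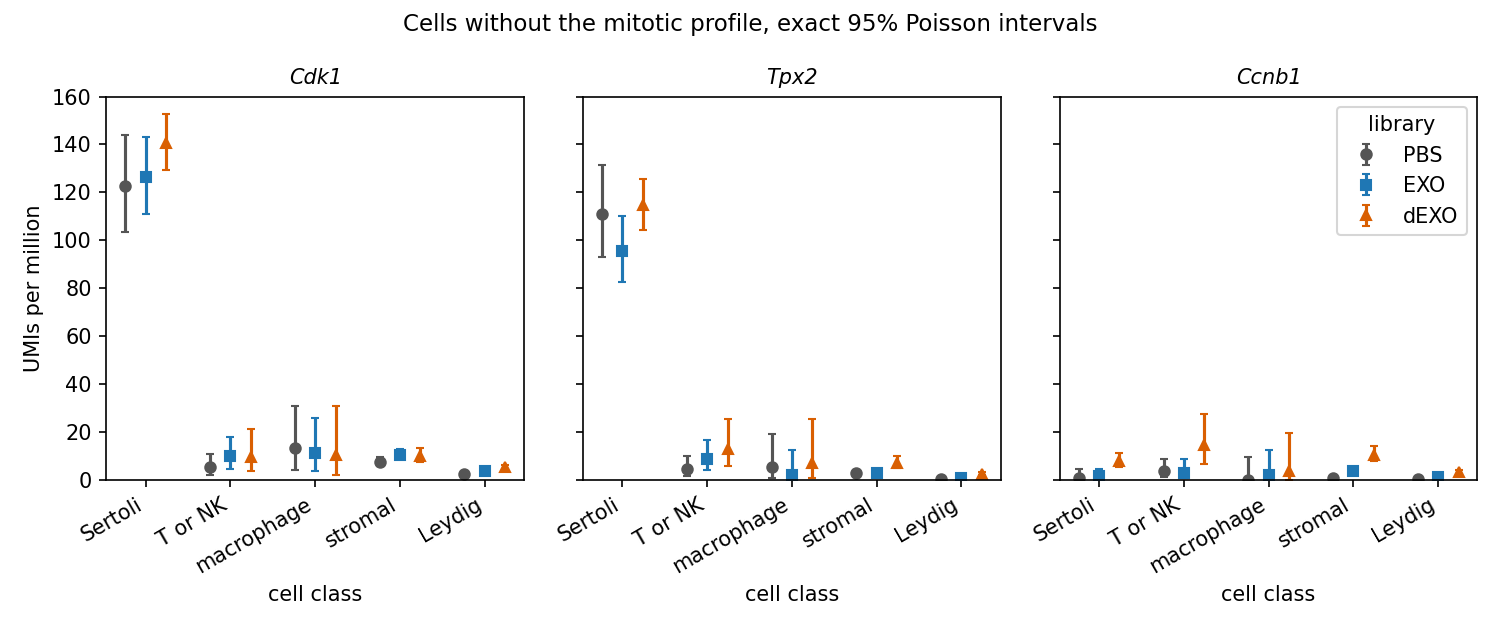
Level of Cdk1, Tpx2 and Ccnb1 in CPM in somatic cells without the mitotic profile, by class and library, with exact 95% intervals. Sertoli cells hold 123, 126 and 141 CPM of Cdk1 and 111, 95.6 and 115 of Tpx2 in PBS, EXO and dEXO, far above the other classes, and Ccnb1 does not follow them.

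Sertoli cells with the profile were 3 of 61 cells (4.92%, 1.03 to 13.7) in PBS, 7 of 165 cells (4.24%, 1.72 to 8.55) in EXO and 27 of 340 cells (7.94%, 5.298 to 11.3) in dEXO, and Cdk1 and Tpx2 count toward the 3 members of the rule. Without thinning the shares were 33.8%, 24.2% and 37.5%. Markers of early spermatocytes summed to 2625 CPM in these cells against 288 in the other Sertoli cells, and Sertoli markers to 16809 against 23064. The part of joined germ and Sertoli cells was not tested. Of the members with enough UMIs in Sertoli cells, 7 reached the minimum on their PBS UMIs alone in each comparison with PBS, so those counts are also a description only. Over all Sertoli cells, 9 of 21 members were higher and 1 lower in EXO over PBS (6.61% and 2.1% of genes), and 17 of 29 were higher and 0 lower in dEXO over PBS (13.9% and 1.77%). The lower member was Cenpa. In dEXO over EXO, Ccnb1 and Cdc20 were higher and Kif11 lower of 30 members (6.91% and 1.15%). Top2a was at 16.5, 72.95 and 49.9 CPM and Ccnb2 at 1.499, 10.5 and 15.9, in 80, 231 and 552 cells.

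Genes that overlap others can share reads with them where the counting does not use strand. Among the members these are Ccna2 (Exosc9 on the opposite strand), Cdc20 (Elovl1), Ube2c (Tnnc2), Kif20a (Cdc23), Nusap1 (Oip5) and Mcm7. Mki67 (Gm45240), Top2a (Gm26394), Plk1 (Gm44985), Cenpf (Gm37239) and Kif11 (AC137605.6) also have a gene on the opposite strand. The values of all these members are uncertain for that reason. Pseudogene rows held 38 UMIs for Ccnb1, 250 for Ccnb2 and 63 for Pcna over all libraries.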

How the data were processed

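UMI counts per gene and barcode were deposited by the authors as filtered matrices, and per the file headers Cell Ranger 5.0.1 made them. Seurat and build GRCm38 also appear in the submitters' processing notes. The unit is raw counts, with no normalization. A barcode was dropped below 500 UMIs or 300 genes or above 20% mitochondrial UMIs. Counts were scaled to 10000 per cell, log transformed and clustered (scanpy 1.11.5, 2000 variable genes without 138 cell cycle genes, 30 components, 15 neighbours, Leiden resolution 1, germ clusters divided again at 0.5). A cluster was named where at least 3 markers of 1 class were raised at least 4-fold over the median cluster and no unrelated class had many markers raised; the naming rule was written after the clusters were seen. UMIs were summed per class and library. Exact Poisson, Clopper-Pearson and conditional binomial intervals were computed with scipy 1.17.1, and the scripts were tested on simulated data. With 1 library per group there were no tests. The members and all gene lists were chosen with earlier results of these data known. All 31 members are described; of other lists, at most 4 genes per list and comparison may be named, those with at least 20 UMIs and the interval bound farthest from 0, and the leading genes of clusters were named outside this rule, after their values were seen. Gene positions are from GENCODE M21, promoters from RefSeq GRCm38.p6.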

Additional observations from a re-analysis of the deposited data

Results flagged for a closer look

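The mitosis members differed between libraries in opposite directions in macrophages and stromal cells, and the difference between the classes was not tested. In EXO over PBS the log2 ratio of their sum was -1.93 (-2.19 to -1.67) in macrophages and 0.70 (0.64 to 0.77) in stromal cells. In dEXO over PBS it was -1.65 (-1.94 to -1.38) and 0.96 (0.88 to 1.03). The PBS macrophage value rests on 4 cells with the mitotic profile out of 79; in macrophages without it the sums were 132, 149 and 243 CPM in PBS, EXO and dEXO.

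The unnamed cluster c107, led by Prss50, Rhox13 and Rbp4 with the Leydig gene Svs5 among its leading genes, entered no comparison. PBS had 0 of its cells, EXO 6 and dEXO 26, and its mitosis members summed to 1359 CPM (1257 to 1466) in dEXO.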

How the results depend on the processing

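Shares of cells with the mitotic profile (PBS, EXO and dEXO) changed with the rule. In the somatic classes they were 2.44%, 4.08% and 7.45% with at least 2 members, 1.25%, 1.37% and 1.06% with 5, 1.16%, 1.28% and 1.601% at 1000 UMIs and 3.66%, 3.55% and 9.18% without thinning; in spermatogonia they were 93.3%, 95.1% and 93.6%, 74.4%, 62.8% and 63.6%, 76.9%, 60.1% and 62.8% and 98.9%, 84.2% and 86.9%. A limit of 10 members, chosen after seeing the data, gave 0.665%, 0.806% and 0.594% and 16.7%, 14.02% and 16.4%. Somatic shares were 1.03%, 1.16% and 2.01% when cycle genes entered the clustering, 1.43%, 1.405% and 2.05% without the highest doublet scores, 1.37%, 1.63% and 2.47% with at most 10% mitochondrial UMIs and 0.802%, 0.957% and 1.998% at resolution 2. Log2 ratios of the summed mitosis members are given for Leydig EXO over PBS, Leydig dEXO over PBS, stromal EXO over PBS, stromal dEXO over PBS, spermatogonia dEXO over PBS and spermatogonia dEXO over EXO. With cycle genes in the clustering, they were 0.56, 1.70, 1.32, 2.35, 0.038 and -0.063. Without the highest doublet scores, they were 0.76, 2.22, 0.93, 1.58, 0.05 and -0.066. With at most 10% mitochondrial UMIs, they were 0.46, 1.87, 1.23, 1.42, 0.036 and -0.013. At resolution 2, they were -0.023, 1.64, 0.75, 1.54, 0.03 and -0.011. Scaled by the median gene, they were 0.35, 1.60, 0.42, 0.69, -0.0087 and -0.089. As a mean over cells, they were 0.78, 1.96, 1.10, 1.47, -0.15 and -0.079. The Leydig EXO over PBS ratio thus changed sign at resolution 2, and the cause was not tested. In cells without the profile alone, an alternative chosen after seeing the data, the Leydig and stromal ratios were 0.93, 2.06, 0.96 and 1.95. Counts of called members did not change with a minimum of 50 UMIs or none. No replicate could be left out, since each group has 1 library. No paired analysis was possible because each group has 1 library and no result comes from a test.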

Other observations

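Of 18 genes of G1 control and cell cycle exit, 2 were higher and 1 lower by 2-fold in Leydig cells of dEXO over PBS, against 15.6% and 2.48% of all genes. The lower gene was Cdkn1a. Cdkn1a, the gene of the CDK inhibitor p21, was at lower levels in the exosome libraries in several somatic classes. In Leydig cells it was at 86.6 against 131 CPM in EXO over PBS, a log2 ratio of -0.60 (-0.66 to -0.54), and at 41.5 against 131 in dEXO over PBS, -1.66 (-1.75 to -1.57). In T or NK cells it was at 45.7 against 123 and 46.3 against 123 CPM, and in macrophages at 96.7 against 308 and 129 against 308. In stromal cells it was at 57.7 against 76.9 CPM in dEXO over PBS, -0.41 (-0.59 to -0.24), short of the 2-fold limit. All these comparisons share the PBS library, and 1 library per group gives no test.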
